A study of Mus musculus with 45 samples.

Results

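Sox1, Sox2 and Sox3 are the SoxB1 genes of the mouse, and they were read here across a 9-day course from embryonic stem cells toward dorsal spinal neurons. Their rows were taken by gene symbol from the authors' table of 11220 genes, and 3 of the 11220 rows are these genes. The table holds genes with a false discovery rate (FDR) under 0.1 in at least 1 of 12 comparisons of treated groups in the authors' deposited table, so it is not the whole transcriptome. All 3 genes were listed in every library, none at 0.

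SoxB1 proteins are transcription factors with an HMG-box DNA-binding domain that usually act with partner factors, among them POU-domain proteins. Sox2 keeps embryonic stem cells pluripotent together with Oct4, the product of Pou5f1, and all SoxB1 genes are later expressed in dividing neural progenitors, where they hold back neuronal differentiation. Sox1 is commonly used as a marker of committed neuroectoderm, and Sox3 is an X-linked gene of neural progenitors. BMP signalling is known to favour epidermal and mesodermal over neural fates in the early embryo, and retinoic acid (RA) to favour neural differentiation of caudal progenitors.

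RNA was sequenced in bulk from 45 libraries in 15 groups of 3. All cultures started from mouse embryonic stem cells (mESCs), which were carried under basic FGF and the WNT agonist CHIR to the stage called neuromesodermal progenitors. The M groups were then given 100 nM RA with 10 ng/ml BMP4 from day 3 to day 5, so that M4 had been treated for 24 h and M5 for 48 h, and M7 and M9 were sampled after treatment had ended. The B groups were given 100 nM RA for 24 h followed by RA with 10 ng/ml BMP4 for 24 h, and were sampled at the end of it on day 5 (B5) and after it on days 7 and 9. The R groups were given 100 nM RA alone over the same days, 24 h of it in R4 and 48 h in R5, R7 and R9. B6hr and R6hr were taken on day 4 plus 6 h, within the second 24 h of treatment. D3 is the progenitor stage before any RA or BMP4, and D0 the undifferentiated line. M and B therefore differ both in when BMP4 began and in how long it lasted, and the length of RA treatment is given differently in different labels. The design text speaks of 3 independent differentiations, but no label ties a replicate number to one, so p-values measure the spread between these libraries.

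Levels are the authors' normalized values, with no unit in the header and no statement of a correction for length, so levels are compared between groups and not between genes. Summed over all listed genes, a library held 12245725 to 15868724 units, and the depth of each library is unknown. Libraries of one group stood apart at the early stages. Pou5f1 stood at 3064, 2678 and 22336 in D0 replicates 1, 2 and 3, and T, the mesodermal gene Brachyury, at 14602, 933 and 706 in those of D3. Tubb3, a neuronal tubulin, was listed at 6070, 8907 and 2171 in D0 and at 273, 5477 and 4967 in D3. In bulk RNA, fewer cells of a type and less RNA per cell cannot be told apart.

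Each member is a gene of 1 exon on mm10 (GENCODE M21), annotated as protein-coding. Sox1 (ENSMUSG00000096014) lies at chr8:12395295-12400126 on the plus strand, within an intron of Sox1ot and over a miRNA gene, neither of which was analysed here. Sox2 (ENSMUSG00000074637) lies at chr3:34650405-34652461 on the plus strand, inside an intron of Sox2ot on the same strand. Sox3 (ENSMUSG00000045179) lies at chrX:60891366-60893430 on the minus strand and overlaps no other annotated gene. How the authors assigned reads that overlap 2 genes is not given in the sources used here.

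Sequence around the start is shown for Sox2 and Sox1, because short motifs can be read in it directly. Sox3 had no promoter window in the set used. RefSeq promoter windows (GRCm38.p6) matched 2 of the 3 members. Capitals mark, on either strand, the SOX motif ACAAAG, the RA receptor half-site AGGTCA, the CCAAT box and the POU octamer ATGCAAAT. The Sox2 line gives the 250 bases before its RefSeq start (chr3:34649745-34649994, plus strand), and the Sox1 line 30 bases around its octamer (chr8:12395526-12395555, plus strand).
Sox2: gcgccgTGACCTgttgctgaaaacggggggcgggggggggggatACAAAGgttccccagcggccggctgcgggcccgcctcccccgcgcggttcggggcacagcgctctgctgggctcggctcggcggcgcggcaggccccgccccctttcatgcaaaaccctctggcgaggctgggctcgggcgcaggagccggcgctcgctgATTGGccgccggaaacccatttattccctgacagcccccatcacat
Sox1: gccagcgcgccATGCAAATcaccgccgccg
In the Sox2 window the SOX motif began at -206, counted from the start. The reverse complement of the RA receptor half-site began at -244 and that of the CCAAT box at -46. In Sox1 the octamer began at +19 and a CCAAT box, in the part not shown, at -237. Of 32851 RefSeq windows of the same length (250 bases before and 50 after a start), 18.7% held ACAAAG, 16.3% AGGTCA, 37.4% CCAAT and 1.74% the octamer. The 250 bases were 72% G and C for Sox2 and 71.2% for Sox1, against a median of 52.4% over all windows. The RefSeq starts differ from the GENCODE starts given above. For Sox2 the 250 bases end at 34649994, before the GENCODE start at 34650405. For Sox1 they run from 12395269 to 12395518 and hold the GENCODE start at 12395295. Positions and base shares therefore depend on the start used. A motif match is a description of the letters and not evidence of a bound site.

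Across the 15 groups the members had different profiles. Sox1 had its highest mean log2 level in R5 (1867 ± 296, SD, n = 3) and its lowest in M7 (49.9 ± 17.8), and the means of these groups differed 37.4-fold. Sox3 was highest in R7 (3866 ± 603) and lowest in M5 (176 ± 96.8), a 21.9-fold difference. Sox2 had a narrower span, with R9 at the top (8919 ± 1226) and M7 at the bottom (1009 ± 309), 8.84-fold apart. On the log2 scale the span of Sox1 exceeded that of 97.3% of listed genes, that of Sox3 94.5% and that of Sox2 82.9%.

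The order of groups for Sox1 ran R5, R4, B6hr, R6hr, R7, R9, B5, B9, B7, D0, M9, M4, M5, D3 and M7 by mean log2 level. Ranges overlapped in 10 of the 14 neighbouring places, and did not between R5 and R4, R7 and R9, B5 and B9, or D0 and M9. For Sox2 the order was R9, B7, B9, D0, R7, R5, B6hr, R4, B5, R6hr, D3, M4, M9, M5 and M7, and 13 of 14 neighbours overlapped, all but R7 and R5. For Sox3 it was R7, R5, R9, R4, R6hr, B7, B6hr, B9, B5, D3, D0, M4, M9, M7 and M5, with overlap in 12 of 14 and none between R5 and R9 or R9 and R4. All 4 M groups stood in the lowest 5 places for every member, and R5, R7 and R9 in the highest 6.

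**Figure D1:**
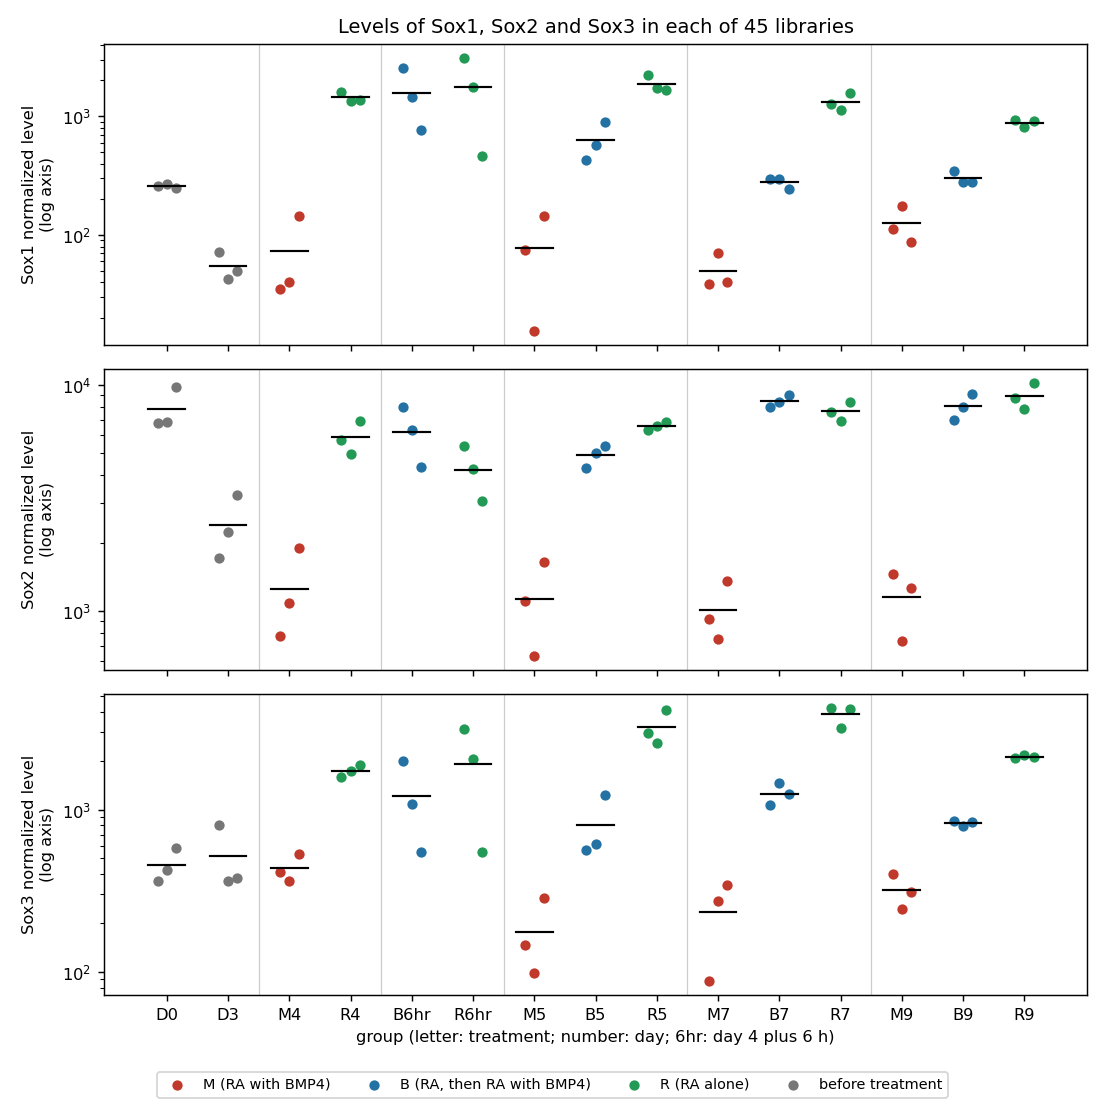
Normalized level (log axis) of Sox1, Sox2 and Sox3 in each library, by group along the horizontal axis, with points for the 3 libraries of a group and a bar at their mean. The M libraries (red) lie below the R libraries (green) of the same day for all 3 genes, while the B libraries (blue) lie below R for Sox1 and Sox3 on days 5, 7 and 9 and overlap R for Sox2 on days 7 and 9.

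The step from undifferentiated cells to day 3 separated the members: Sox1 and Sox2 fell, and Sox3 did not pass the test. Changes are log2 fold changes of level + 1 with their standard error (SE) from a limma-trend fit over all libraries, and a change was called at a Benjamini-Hochberg adjusted p under 0.05 over the 11220 genes. Sox2 stood at 1716, 2242 and 3261 in D3, against 6781, 6873 and 9752 in D0. All D3 libraries lay below all D0 libraries (log2 change -1.73, SE 0.30, adjusted p = 1.2e-05). Sox1 stood at 71.4, 42.5 and 49.9 in D3, against 260.2, 269.1 and 246.8 in D0, again without overlap (-2.26, SE 0.56, adjusted p = 0.00096). Sox3 stood at 800.6, 365.1 and 379.9 in D3, against 363.2, 426.7 and 580.8 in D0, and the groups overlapped (0.10, SE 0.48, adjusted p = 0.87). Called lower were 2 of the 3 members, where 24% of all listed genes were called lower and 30.9% higher. Quantile normalization shifted the median of all genes here by -0.12 and turned the sign of the Sox3 value. The pluripotency list showed 13 of 15 genes lower and 0 higher, with a median log2 change of -3.36 against 0.07 over all genes. The caudal progenitor list showed 14 of 15 higher and 0 lower (median 6.43). Of 20 other neural progenitor genes 9 were higher and 3 lower (median 0.79), and of 16 neuronal genes 8 were higher and 1 lower (median 1.24). The D0 library with the highest Pou5f1 also had the highest Sox2 and Sox3 of its group, and the D3 library with the highest T the highest Sox1 and Sox3 and the lowest Sox2. The part of these library differences in the results was not tested.

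During the 24 h of RA that followed, all 3 members rose. Sox1 stood at 1613, 1355 and 1365 in R4, against 71.4, 42.5 and 49.9 in D3, so that every R4 library lay far above every D3 library (log2 change 4.73, SE 0.56, adjusted p = 1.2e-07). Sox2 stood at 5718, 4939 and 6933 in R4, against 1716, 2242 and 3261 in D3, and did not overlap (1.32, SE 0.30, adjusted p = 0.0014). Sox3 stood at 1581, 1726 and 1885 in R4, against 800.6, 365.1 and 379.9 in D3, also without overlap (1.84, SE 0.48, adjusted p = 0.0045). Called higher were 3 of 3 members, where 11.7% of all genes were called higher and 12.6% lower. By mean level Sox1 reached 2645% of D3, Sox2 243.7% and Sox3 335.9%. Among 20 other neural progenitor genes 11 rose and 2 fell (median 2.06, against -0.01 over all genes). Pax6, a homeodomain factor of neural progenitors, rose by 6.56, and Irx3, a homeodomain factor of the neural tube, by 3.64. Fabp7, a fatty acid binding protein of radial glia, fell by 3.37, and Gsx1, a homeodomain factor of dorsal progenitors, fell by 2.72. Pou5f1 was the 1 POU partner gene called, at -3.04, so that R4 had more Sox2 and less Pou5f1 than D3.

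With BMP4 present from the start, no member was called higher by day 4 and Sox2 was called lower. Sox1 stood at 35.2, 39.9 and 143.9 in M4, against the D3 values above, and the groups overlapped (log2 change 0.14, interval -1.002 to 1.28, adjusted p = 0.87). Sox3 stood at 413.4, 360.7 and 533.2 in M4 and also overlapped D3 (-0.16, SE 0.48, adjusted p = 0.83). Sox2 stood at 779.5, 1088 and 1904 in M4, lower than D3 with some overlap (-0.99, SE 0.30, adjusted p = 0.012), where 17.7% of all genes were called lower and 14.9% higher. The Sox2 call ended with the compared libraries alone (adjusted p = 0.15), without D3 replicate 3 (0.10) and without M4 replicate 1 (0.10).

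M against R compared BMP4 given together with RA to RA alone, and all 3 members were lower in M on each of the 4 days. None of the 12 pairs of groups overlapped. The share of all listed genes without overlap was not taken, here or in other comparisons, so overlap is given as a description only. The shares of all listed genes called lower were 7.37% on day 4, 23.3% on day 5, 20.6% on day 7 and 23.5% on day 9, and all 12 member values were called lower. M over R and B over R share the same R libraries, so they are given side by side and not as separate evidence.

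Sox1 stood at 35.2, 39.9 and 143.9 in M4, against 1613, 1355 and 1365 in R4 (log2 change -4.59, SE 0.56, adjusted p = 8.4e-07). It stood at 74.7, 15.4 and 144.4 in M5, against 2205, 1735 and 1660 in R5 (-5.03, adjusted p = 1.6e-08). The M libraries lay far below the R libraries on both days, and M5 replicate 2 had the lowest Sox1 level of all 45 libraries. On day 7 it stood at 38.9, 70.4 and 40.2 in M7, against 1275, 1127 and 1575 in R7 (-4.74, adjusted p = 4.1e-08). On day 9 it stood at 112.3, 175.5 and 87.7 in M9, against 925.7, 815.1 and 914.8 in R9 (-2.87, adjusted p = 9.3e-05). Its mean in M was 5.05%, 4.19%, 3.76% and 14.1% of that in R on days 4, 5, 7 and 9.

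Sox2 stood at 779.5, 1088 and 1904 in M4, against 5718, 4939 and 6933 in R4 (log2 change -2.31, SE 0.30, adjusted p = 2.3e-06). On day 5 it stood at 1103, 630.5 and 1652 in M5, against 6284, 6588 and 6854 in R5 (-2.65, adjusted p = 2.4e-08). The M libraries varied more among themselves than the R libraries, and the gap between the groups was larger than either range. On day 7 it stood at 922.6, 752.4 and 1352 in M7, against 7550, 6942 and 8431 in R7 (-2.96, adjusted p = 2.6e-09). On day 9 it stood at 1460, 737.6 and 1261 in M9, against 8748, 7788 and 10222 in R9 (-3.00, adjusted p = 2.2e-09). Its mean in M was 21.4%, 17.2%, 13.2% and 12.9% of that in R on the 4 days.

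Sox3 stood at 413.4, 360.7 and 533.2 in M4, against 1581, 1726 and 1885 in R4 (log2 change -2.003, SE 0.48, adjusted p = 0.0039). On day 5 it stood at 145.5, 98.8 and 284.9 in M5, against 2969, 2580 and 4129 in R5 (-4.30, adjusted p = 1.6e-08). The M5 libraries were all below the M4 libraries and the R5 libraries all above the R4 libraries. On day 7 it stood at 87.3, 273.2 and 344.6 in M7, against 4241, 3171 and 4186 in R7 (-4.24, adjusted p = 1.7e-08). On day 9 it stood at 398.7, 245.0 and 310.9 in M9, against 2065, 2159 and 2111 in R9 (-2.75, adjusted p = 2.0e-05). Its mean in M was 25.2%, 5.47%, 6.08% and 15.1% of that in R.

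The change of the M over R difference from one day to the next was tested as an interaction within the same fit. For Sox3 the day 5 difference was larger than that of day 4 (difference of log2 changes -2.29, SE 0.68, adjusted p = 0.034), where 3.21% of genes were called lower. That call ended, at adjusted p of 0.052 to 0.126, without M4 replicate 1 or 3, M5 replicate 1 or 2, R4 replicate 1, 2 or 3, or R5 replicate 1 or 3. The same interaction was not called for Sox1 (-0.45, interval -2.06 to 1.17) or Sox2 (-0.34, interval -1.21 to 0.53), where intervals are 95% confidence intervals. From day 5 to day 7 it was called for no member (unadjusted p under 0.05 for 0 of 3), where 11% of genes were. Between days 7 and 9 the M over R difference of Sox1 shrank by 1.88 (SE 0.79, adjusted p = 0.12) and that of Sox3 by 1.48 (SE 0.68, adjusted p = 0.15), neither of which was called, where 11.9% of genes were called in either direction. With the compared libraries alone the Sox1 value was called (adjusted p = 0.021). For Sox2 it was -0.04 (interval -0.91 to 0.83). Averaged over the 4 days, the M over R difference was -4.31 for Sox1, -2.73 for Sox2 and -3.32 for Sox3 on the log2 scale. In an exact two-sided permutation test with labels exchanged within each day, each gave p = 1.25e-05, the smallest the design allows (adjusted p = 7.5e-05 over 18 tests, lower on 4 of 4 days).

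**Figure D2:**
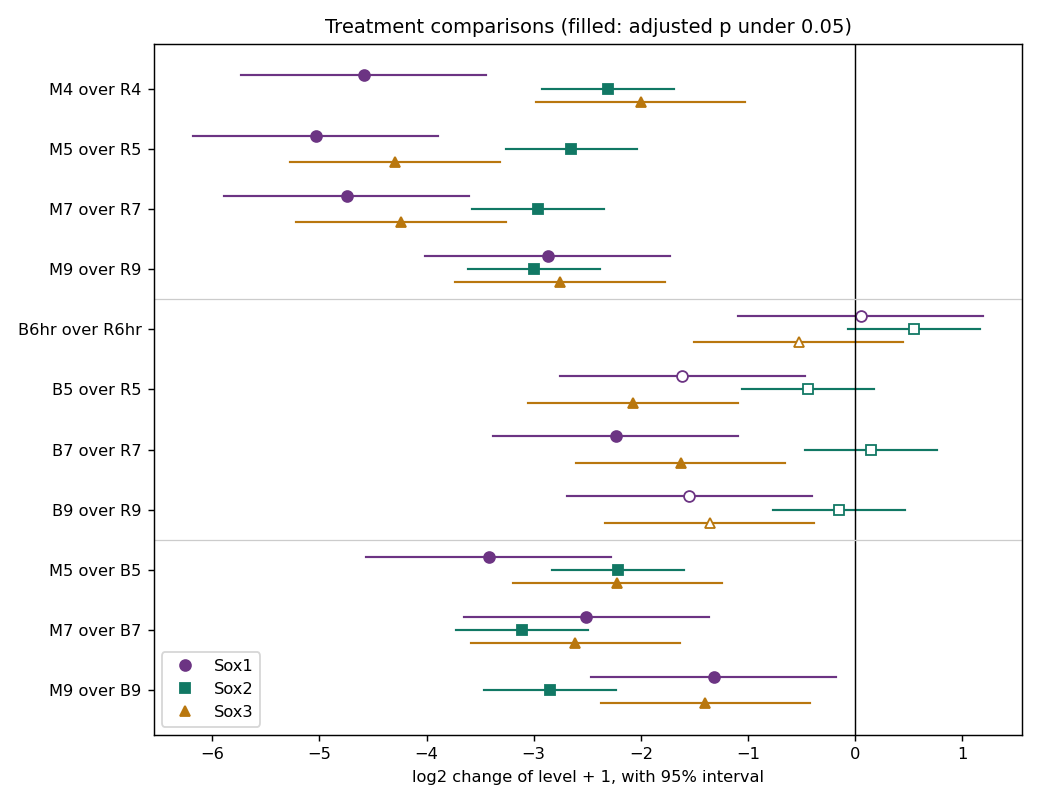
Log2 change of level + 1 (horizontal axis, with 95% intervals) of Sox1, Sox2 and Sox3 in the 11 treatment comparisons listed down the page, filled where the adjusted p was under 0.05. All 12 M over R and all 9 M over B values are filled and below 0, and of 9 B over R values on days 5, 7 and 9 only 3 are, none of them for Sox2. The B6hr over R6hr values are from the fit without pairing.

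B against R compared BMP4 added after 24 h of RA to RA alone, and here the members parted. Sox1 and Sox3 were lower in B than in R in every library of days 5, 7 and 9, and Sox2 overlapped R on days 7 and 9. At 6 h after the addition no member was called, nor nearly any other gene, in the fit without a replicate block. By limma-trend 0.0178% of genes were called there, with 0 of 3 members at an unadjusted p under 0.05. Of 10 BMP target genes, 0 were called higher and 0 lower there (median log2 change -0.32, against -0.01 over all genes). Their levels summed to 5075 to 28086 in B6hr, against 11032 to 43250 in R6hr, so a response to BMP4 was not seen in these genes either. Sox1 stood at 2538, 1442 and 760.1 in B6hr, against 3111, 1749 and 459.6 in R6hr (log2 change 0.05, interval -1.09 to 1.19, adjusted p = 0.97). Sox3 stood at 1992, 1080 and 547.7 in B6hr, against 3140, 2041 and 549.6 in R6hr (-0.53, interval -1.50 to 0.45, adjusted p = 0.56). Both genes varied severalfold within each 6 h group, and replicate 3 was the lowest in both.

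Sox2 stood at 7976, 6327 and 4312 in B6hr, against 5362, 4243 and 3054 in R6hr, with overlapping ranges (log2 change 0.55, interval -0.07 to 1.16, adjusted p = 0.31). Replicate 1 was the highest and replicate 3 the lowest in both groups, and B6hr was above R6hr at each number. In this comparison alone the numbers met the rule set for pairing libraries, while the values above come from the fit without pairing. With the 6 libraries alone and the replicate number as a block the Sox2 change was called (0.55, adjusted p = 0.00045), and with the block over all libraries it was not (adjusted p = 0.28). The share of all genes called in the blocked fit of these 6 libraries was not taken, so the Sox2 call has no background there.

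On day 5, 24 h after BMP4 was added, Sox3 stood at 565.1, 609.3 and 1226 in B5, against 2969, 2580 and 4129 in R5 (log2 change -2.07, SE 0.48, adjusted p = 0.0080). Sox1 stood at 429, 577.2 and 893.5 in B5, against 2205, 1735 and 1660 in R5 (-1.61, SE 0.56, adjusted p = 0.081). Sox2 stood at 4275, 4976 and 5369 in B5, against 6284, 6588 and 6854 in R5 (-0.44, interval -1.05 to 0.18, adjusted p = 0.44). In all 3 genes every B5 library was below every R5 library, and 1 of 3 was called lower, where 3.23% of all genes were. The Sox3 call ended without B5 replicate 2 (adjusted p = 0.060) or R5 replicate 3 (0.063). The Sox1 value passed in the authors' deposited table (FDR 0.034).

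On day 7 Sox1 stood at 299.1, 293.5 and 244.4 in B7, against 1275, 1127 and 1575 in R7 (log2 change -2.24, SE 0.56, adjusted p = 0.0052). Sox3 stood at 1061, 1450 and 1240 in B7, against 4241, 3171 and 4186 in R7 (-1.63, SE 0.48, adjusted p = 0.015). Sox2 stood at 7973, 8420 and 8992 in B7, against 7550, 6942 and 8431 in R7 (0.15, interval -0.47 to 0.77, adjusted p = 0.76). Sox1 and Sox3 were thus low in all B7 libraries, and Sox2 overlapped between the groups. Called lower were 2 of 3 members, where 11.6% of all genes were. The Sox3 call ended without B7 replicate 1 (adjusted p = 0.061).

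On day 9 Sox1 stood at 347.6, 279.4 and 281.6 in B9, against 925.7, 815.1 and 914.8 in R9 (log2 change -1.55, SE 0.56, adjusted p = 0.067). Sox3 stood at 845.6, 791.8 and 836.2 in B9, against 2065, 2159 and 2111 in R9 (-1.36, SE 0.48, adjusted p = 0.060). Sox2 stood at 7009, 8010 and 9101 in B9, against 8748, 7788 and 10222 in R9 (-0.15, interval -0.76 to 0.47, adjusted p = 0.80). Again Sox1 and Sox3 did not overlap between the groups and Sox2 did, and 0 of 3 were called, where 5.71% of all genes were called lower (limma-trend, unadjusted p under 0.05 for 2 of 3). Sox1 and Sox3 passed with the 6 libraries alone (adjusted p = 0.0020 and 0.0010), under quantile normalization (0.037 and 0.028) and in the authors' deposited table (FDR 0.030 and 0.031). Averaged over days 5, 7 and 9, B over R was -1.80 for Sox1 and -1.69 for Sox3, lower on 3 of 3 days (exact permutation test, p = 0.00025, the smallest the design allows, adjusted p = 0.00045 each). For Sox2 it was -0.15 (exact permutation p = 0.13, adjusted p = 0.16, lower on 2 of 3 days).

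M against B compared BMP4 from day 3 to BMP4 from day 4, and all 9 values were called lower in M without overlap. The shares of all genes called lower were 9.23% on day 5, 19.9% on day 7 and 23.7% on day 9. Sox2 differed by -2.21 on day 5, -3.11 on day 7 and -2.85 on day 9 (SE 0.30, adjusted p at most 3.9e-06). Its M libraries lay between 630.5 and 1652 and its B libraries between 4275 and 9101. Sox1 differed by -3.42 on day 5, -2.51 on day 7 and -1.32 on day 9 (SE 0.56, adjusted p = 4.9e-05, 0.00063 and 0.049). The day 9 call of Sox1 was at the edge. It ended with the replicate block (adjusted p = 0.053), a pseudocount of 0.1 (0.0505), quantile normalization (0.076), adjustment over 16014 genes (0.069), and without B9 replicate 1, 2 or 3 or M9 replicate 1 or 3 (0.078 to 0.151). Sox3 differed by -2.22, -2.61 and -1.40 (SE 0.48, adjusted p = 0.0013, 6.5e-05 and 0.016), and its day 9 call ended without M9 replicate 2 (0.070). Averaged over the days, M over B was -2.42 for Sox1, -2.72 for Sox2 and -2.08 for Sox3 (exact permutation test, adjusted p = 0.00045 each, lower on 3 of 3 days).

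After day 4, Sox2 in B7 over B5 was the 1 value called at a step between sampled times. In R, 0 of 12 values for the steps between sampled times were called by limma-trend, with 2 at an unadjusted p under 0.05. The shares of all genes called in either direction at these steps were 5.45% for R6hr over R4, 19.1% for R5 over R6hr, 11.2% for R7 over R5 and 20.3% for R9 over R7. The 2 member values at an unadjusted p under 0.05 were both in R5 over R6hr. Sox2 was higher in every R5 library than in every R6hr library (log2 change 0.68, SE 0.30, adjusted p = 0.107). Sox3 overlapped there (1.05, SE 0.48, adjusted p = 0.113, and 0.041 without R6hr replicate 1). Sox1 averaged 1444 ± 146 in R4, 1867 ± 296 in R5, 1326 ± 228 in R7 and 885 ± 61 in R9 (SD, n = 3). Sox3 averaged 1731 ± 152, 3226 ± 806, 3866 ± 603 and 2112 ± 47.1 in the same groups. With the 6 libraries alone the Sox3 decrease of R9 over R7 was called (log2 change -0.86, adjusted p = 0.024, against 0.21 in the fit over all libraries). In B, Sox2 averaged 4873 ± 554 in B5, 8462 ± 511 in B7 and 8040 ± 1046 in B9. It rose in B7 over B5 (0.80, SE 0.30, adjusted p = 0.042), where 15.8% of genes were called higher. In the same comparison 14 of 16 neuronal genes (median 3.29) and 9 of 15 pluripotency genes (median 1.52) were called higher and 0 lower, against a median of -0.02 over all genes. The neuronal genes summed to 60596 to 82493 in B7, against 3199 to 11165 in B5, and their part in the Sox2 value was not tested. This call ended without any one of the 6 libraries (adjusted p = 0.072 to 0.110) and on adjustment over 16014 genes (0.060). No member was called in B6hr over R4, B5 over B6hr or B9 over B7, where 8.4%, 28.4% and 14.2% of genes were (limma-trend, unadjusted p under 0.05 for 1 of 9). The value of Sox1 in B5 over B6hr (log2 change -1.22, adjusted p = 0.098) passed without B6hr replicate 3 (0.046) and in the authors' deposited table (FDR 0.040), and that of Sox3 in B9 over B7 (-0.59, adjusted p = 0.46) with the 6 libraries alone (0.024). Sox1 stood lower in B7 than in B5 without overlap (-1.12, SE 0.56, adjusted p = 0.13, and 0.028 with the 6 libraries alone). In M, 0 of 9 such values were called by limma-trend, with 2 at an unadjusted p under 0.05, where 10.4%, 12.5% and 4% of all genes were called at the steps to days 5, 7 and 9. Sox3 was lower in M5 than in M4 in every library (-1.42, SE 0.48, adjusted p = 0.053), which was called under quantile normalization (0.048) and without M5 replicate 3 (0.021). Sox1 was higher in M9 than in M7 in every library (1.31, SE 0.56, adjusted p = 0.21). In all, Sox1 was called in 10 of 25 comparisons between groups, Sox2 in 11 and Sox3 in 10, of which 9 each were lower. In the authors' deposited table Sox1 had an FDR under 0.05 in 8 of 12 comparisons, Sox2 in 4 and Sox3 in 7. How many calls other listed genes reached was not counted, so neither count is set against a background. Listing itself required an FDR under 0.1 in at least 1 of those 12 comparisons.

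The balance between members was taken as the difference of their log2 levels within a library. Its values are differences of the member values above in the same libraries, and were chosen with those known, so they size the gap between members and are not separate evidence of it. Relative to Sox2, Sox1 was lower by 1.65 in B than in R (mean difference -1.65 over days 5, 7 and 9, exact permutation p = 0.00025, adjusted p = 0.00045, lower on 3 of 3 days). Sox2 relative to Sox3 was higher by 1.54 in B than in R (adjusted p = 0.00045, higher on 3 of 3 days). Sox1 relative to Sox3 differed by -0.11 between B and R (adjusted p = 0.51). In M over R, Sox1 relative to Sox2 differed by -1.58 (exact permutation p = 0.00036, adjusted p = 0.00059). By day this value reached from -2.39 to 0.13. Sox1 relative to Sox3 differed by -0.99 (adjusted p = 0.013) and Sox2 relative to Sox3 by 0.59 (adjusted p = 0.038) in M over R. The last of these rested on the setting, with an adjusted p of 0.11 under the replicate block and 0.059 under quantile normalization, and it ended in 15 of 24 fits that left out 1 library (0.052 to 0.068). By day it reached from -0.30 to 1.65, so its sign was not the same on every day. In M over B, Sox1 relative to Sox2 differed by 0.31 (adjusted p = 0.51), Sox1 relative to Sox3 by -0.34 (adjusted p = 0.38) and Sox2 relative to Sox3 by -0.65 (adjusted p = 0.038, and 0.070 under the replicate block). That call ended in 15 of 18 fits that left out 1 library (0.051 to 0.093).

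Sox1 relative to Sox2 was -3.19 ± 0.98 in M9, -4.72 ± 0.35 in B9 and -3.32 ± 0.14 in R9 (log2 difference, mean ± SD, n = 3). On day 5 it was -4.21 ± 0.93 in M5, -3.00 ± 0.38 in B5 and -1.83 ± 0.28 in R5. Among the 3 treatments, Sox1 relative to Sox2 thus had its lowest mean in M on day 5 and in B on day 9. In R it was -2.01 in R4, -1.83 in R5, -2.54 in R7 and -3.32 in R9.

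**Figure D3:**
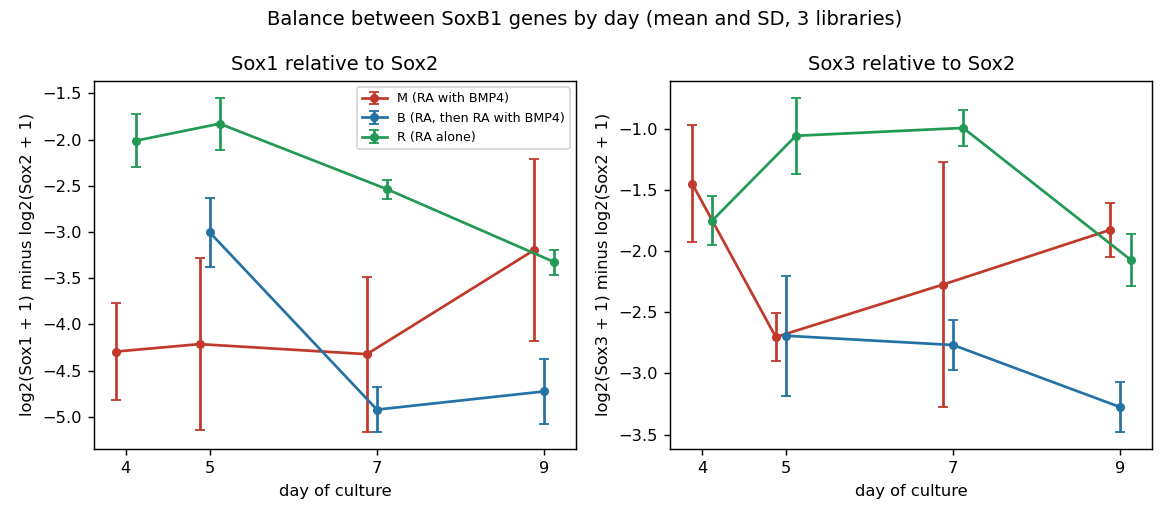
Log2 level of Sox1 (left) and Sox3 (right) minus that of Sox2 within a library, against the day of culture, as mean and SD of 3 libraries for M, B and R. The B points lie below R on days 5, 7 and 9 in both panels, while M and R meet on day 9, where Sox1 relative to Sox2 is -3.19 in M9 and -3.32 in R9.

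Sox2ot, the noncoding gene whose intron holds Sox2, was listed at low levels, between 4.56 and 7.84 in M5 against 96.7 to 208.2 in R5. It was at 119 to 146.6 in B7, against 233 to 332.6 in R7, which did not overlap, while Sox2 did. On the other days Sox2ot and Sox2 went alike. Sox2ot was at 42.6 to 77.6 in B5, below R5, and at 149.9 to 157 in B9, overlapping 136.8 to 160.9 in R9. Reads of Sox2ot and Sox2 come from the same strand, and their separation rests on the authors' annotation.

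Over the 15 group means, the members correlated with each other at Pearson r = 0.88 for Sox1 and Sox3, 0.80 for Sox2 and Sox3, and 0.78 for Sox1 and Sox2. These groups share libraries, normalization and the treatment contrast, so the values are descriptions with no test. Among 11219 other genes Sox3 ranked 37 for likeness to Sox1, while Sox2 ranked 186. The genes most like Sox1 were Ank (0.97), a pyrophosphate transporter, Sim1 (0.96), a bHLH-PAS factor, Pax6 (0.96), Klhdc7a (0.94) and Muc1 (0.94), a mucin, and the least like were Pwwp2b (-0.95) and Kcnv2 (-0.94). For Sox2 they were Cenpv (0.95), Rb1 (0.95), the retinoblastoma protein, Gnaz (0.94), a G protein subunit, Pard6a (0.94), a polarity protein, and Synrg (0.93). Least like Sox2 were Prom2 (-0.97) and Ptgdr2 (-0.96), a prostaglandin D2 receptor. For Sox3 they were Dhx32 (0.97), Ttc9 (0.96), Hmx3 (0.96), a homeodomain factor, Tdrkh (0.95) and Mir219a-2 (0.95), and the least like were the ETS factors Elk1 and Elk3 (both -0.95). Over the 45 libraries the value of each of these named genes was weaker. The weakest were Ptgdr2 with Sox2 (-0.68), Kcnv2 with Sox1 (-0.78) and Synrg with Sox2 (0.80). Ptgdr2, Kcnv2 and Mir219a-2 were low genes, with group means down to 1.83 (B9), 2.13 (B6hr) and 0.94 (M5).

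The SoxB2 gene Sox21, which encodes a repressor related to SoxB1, was lower in M over R and higher in R4 over D3, as all 3 members were. It stood at 20.3, 29.3 and 30.8 in M4, against 428.6, 354.2 and 742.1 in R4 (log2 change -4.14, adjusted p = 6.6e-06). It was lower in M on all 4 days (-4.14, -3.80, -5.28 and -3.92, each called). In B over R it was -1.75, -2.12 and -1.66, and only the day 7 value was called (adjusted p = 0.0093). In R4 over D3 it rose by 2.93 and in D3 over D0 it fell by 2.48.

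Other Sox families behaved differently from one another. Sox12, the 1 SoxC gene in the table of 3 on the list, was higher in M7 over R7 (0.75) and M9 over R9 (0.94). Among the SoxD genes Sox5, Sox6 and Sox13, Sox13 fell in M7 over R7 (-0.96), M9 over R9 (-0.87), B7 over R7 (-1.10) and B9 over R9 (-1.21). Among the SoxE genes, Sox10, a neural crest factor, rose in M9 over R9 (1.98), B7 over R7 (2.64) and B9 over R9 (3.04). Sox8 rose in M5 over R5 (0.63) and M7 over R7 (1.29) and fell in B9 over R9 (-0.73), and Sox9, a factor of neural stem cells and glia, fell in M5 over R5 (-1.63). Among the SoxF genes Sox18, an endothelial factor, rose in M5, M7 and M9 over R (1.60, 2.67 and 1.12) and in B7 over R7 (2.33). Sox7 rose in M4 and M5 over R (1.26 and 0.89), and Sox17, an endoderm factor, fell in M9 over R9 (-1.28).

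POU genes encode partner factors of SoxB1 proteins, and 5 of the 6 on the list were in the table. In M over R, 2, 4, 3 and 3 of them fell on days 4, 5, 7 and 9, and Pou5f1 rose on day 5 (2.33). Pou3f1, which encodes Oct6, fell in M4 and M5 over R (-1.90 and -2.06) and in B5 over R5 (-1.56). It rose in B7 over R7 (1.97) and B9 over R9 (1.63). Pou3f1 stood at 1649, 2516 and 2426 in B9, against 867.3, 567.3 and 683.2 in R9, so that all B9 libraries were higher at a time when Sox2 overlapped between these groups.

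The other 20 neural progenitor genes on the list, none of them a member, were lower in M: 13, 18, 16 and 11 fell in M over R on days 4, 5, 7 and 9, and 0 rose. Their median log2 changes were -2.23, -3.57, -3.41 and -1.93, against medians of all genes between -0.02 and 0.04. Rfx4, a winged-helix factor, fell by 5.71 in M4 over R4, and Dbx1, a homeodomain factor of intermediate progenitors, fell by 8.41 in M5 over R5. Zic2, a zinc finger factor, fell by 3.29 in M7 over R7 and by 2.93 in M9 over R9. In B over R, 7, 10 and 2 fell and 0 rose on days 5, 7 and 9 (medians -1.19, -1.19 and -0.87). Pax6 was -1.70, -1.55 and -1.10 there, with no call, and Dbx1 was called on every day (-5.20, -5.21 and -2.98). Members and list thus stood on the same side of 0 in M over R on every day, while Sox2 in B over R stood above the list median on every day.

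**Figure D4:**
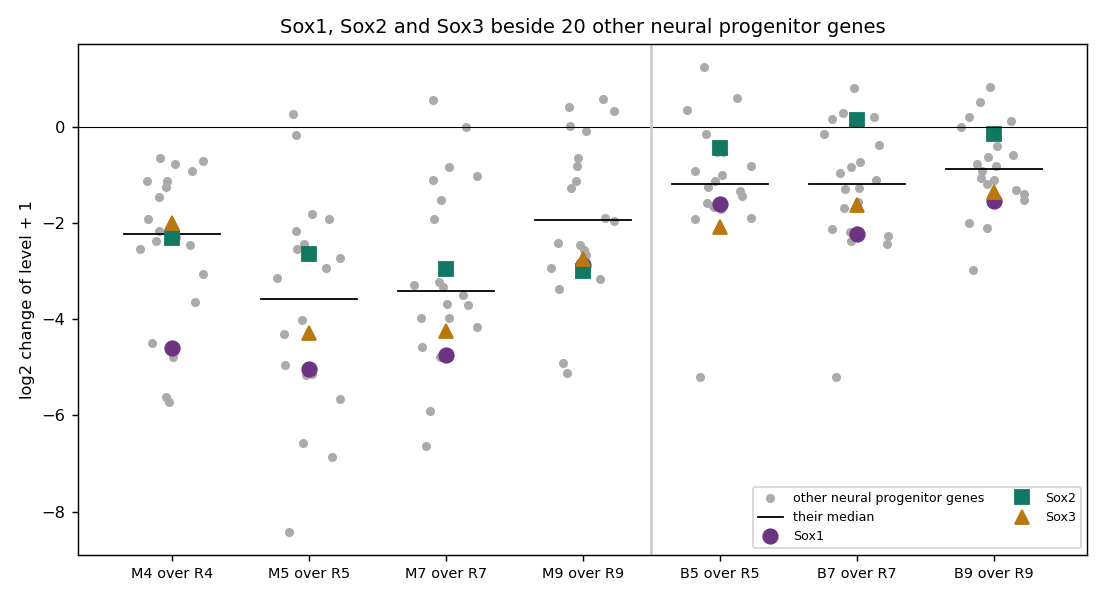
Log2 change of level + 1 (vertical axis) of 20 other neural progenitor genes (grey points, with a bar at their median) and of Sox1, Sox2 and Sox3 in M over R (left of the line) and B over R (right). The median of the grey points is -3.57 in M5 over R5 and -1.19 in B7 over R7, where Sox2 is at 0.15 and Sox1 at -2.24.

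Among 10 genes described as SoxB1 targets, of which 4 are also in the neural progenitor list and 4 in the pluripotency list, 3, 5, 4 and 7 fell in M over R on days 4, 5, 7 and 9. On day 5, 4 rose (0 on the other days), and the medians were -0.72, -0.82, 0.30 and -2.005. Notch1, a receptor gene, fell on each day, by 1.73 on day 4 and by 2.70 on day 7, and Hes5, a Notch effector, fell by 6.87 on day 5. Those that rose on day 5 included the pluripotency genes Fgf4 (2.86) and Nanog (2.10). Within R, 4 of the 10 target genes rose and 1 fell in R9 over R7. The part of that rise in the day 9 values of M over R was not tested. In B over R, 2, 2 and 0 fell and 0 rose, and those that fell on days 5 and 7 were Nes (-1.13 and -0.83), an intermediate filament of progenitors, and Cdh2 (-1.34 and -1.11), N-cadherin. Notch1 was -0.64, -0.12 and -0.43 in B over R, with no call.

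Markers of other cell types moved with the same groups. None of the listed markers of any type was under level 1 in all 3 libraries of any group. Of all genes, 6.76%, 21%, 22.9% and 27.5% were called higher in M over R on days 4, 5, 7 and 9, and 2.76%, 12.1% and 6.12% in B over R on days 5, 7 and 9. Summed over 9 lateral mesoderm genes, all in the table, levels reached 20144 to 25276 in M5, 5696 to 9106 in B5 and 1104 to 1994 in R5, and 7, 9, 9 and 9 of them rose in M over R on the 4 days. Hand1, a bHLH factor, rose by 7.17 in M4 over R4 and by 6.07 in B5 over R5. In B over R, 5, 2 and 3 of the 9 rose. Summed over 13 surface ectoderm genes, all in the table, levels were 15232 to 22146 in M4 against 4085 to 6310 in R4. On day 9 the sums overlapped, at 7499 to 8503 in M9 and 7551 to 8913 in R9. In M over R, 8, 8, 8 and 5 of these genes rose and 0, 0, 1 and 1 fell on the 4 days. In B over R, 1 rose and 1 fell on each day. Summed over 9 paraxial mesoderm genes, levels were 1491 to 4655 in M4 against 10654 to 25437 in R4, and 9 of 9 fell, as Sox1, Sox2 and Sox3 did. On day 9, 5 of these rose and 3 fell in M over R. The 10 BMP target genes summed to 24685 to 57674 in M4 against 10182 to 12903 in R4, with 7 called higher. In B5 over R5, 3 were called higher. Their part in the Sox results was not tested.

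Neuronal genes were prominent in B7, where Sox1 and Sox3 were low and Sox2 high. Summed over 16 neuronal genes, all in the table, levels were 60596 to 82493 in B7 against 9039 to 33262 in R7, and 4 rose and 0 fell. Stmn2, a growth-associated phosphoprotein, rose by 2.22. Of 9 proneural genes 2 rose and 1 fell in B7 over R7, with Neurod1 at 4.02 and Atoh1, the factor of the most dorsal interneurons, at 3.86. In M over R, 3, 13, 11 and 8 of the neuronal genes fell and 4, 7, 6 and 3 of the proneural genes, with 0 higher. The neural crest and Schwann list (9 genes) had 2, 4 and 5 higher and 0, 1 and 0 lower in B over R on days 5, 7 and 9, and summed to 5512 to 6299 in B7 against 2814 to 9443 in R7. The glia list had 6 of 8 genes in the table and summed to 2613 to 4385 in B7 against 699 to 2323 in R7, where Nfib (3.49) was the 1 gene called. The caudal progenitor list had 0, 3 and 1 of 15 lower and 0 higher in B over R. The pluripotency list had 1, 4 and 0 of 15 higher and 0 lower in B over R. In M over R it had 1, 14, 1 and 0 higher and 0, 0, 0 and 12 lower on days 4, 5, 7 and 9, with medians of 0.59, 2.10, 0.84 and -2.48. Within R, 10 of the 15 pluripotency genes rose and 0 fell in R9 over R7 (median 2.23, against -0.03 over all genes). The part of these cell type markers in the levels of Sox1, Sox2 and Sox3 was not tested.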

How the data were processed

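Per the labels' protocols, mRNA of 45 cultures was made into libraries with NuGEN reagents and read on a NovaSeq. The submitters' processing notes name Picard, edgeR and mm10, with no version of the tools and no role. No source used here gives the aligner, gene counter or annotation. The normalized levels that the authors deposited are a signal, listed for each gene in every library under a header with no unit. The table holds no counts, so limma-trend replaced the count test that had been planned. Columns headed fpkm and a rank column, also deposited, were each handled as a score and left unused. The authors' deposited log2 fold changes, p-values and FDR values served only as an alternative. They follow an adjustment over 16014 genes, of which 11220 are listed, so calls among treated groups are more frequent here than over all genes. Of 22 symbols turned into dates, 19 were restored.

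Levels were tested as log2(level + 1) with limma 3.58.1 in R 4.3.3 (empirical Bayes with trend and robust options, a mean for each group, all 45 libraries in 1 fit), and Benjamini-Hochberg adjusted p-values over 11220 genes were called under 0.05. Requiring level 1 in 3 libraries removed 0 genes. Changes on the log2(level + 1) scale understate those of low genes. Averages over days and the balance between members were tested by exact two-sided permutation of labels within each day, 18 tests with Benjamini-Hochberg adjustment. The fit was tested on simulated data. Tables and plots used Python 3.11.15, pandas 2.3.3, numpy 2.4.6 and matplotlib 3.10.9. Coordinates are from GENCODE M21, sequences from RefSeq.

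The members and all gene lists were chosen with earlier results of these data known. Named are the members, for each the 5 genes with the highest and the 2 with the lowest Pearson r over the 15 group means, up to 2 risen and 2 fallen members of each list with the smallest adjusted p, and POU and other Sox genes. Values of Pax6, Dbx1, Nes, Cdh2, Zic2 and Notch1 outside that rule, and of Sox2ot, T, Tubb3 and Pou5f1 by library, were chosen after their values were seen. A rule on pairing took libraries with the same number and correlated their deviations, each from its group mean. It was met where the correlation was over 0.1 at all 3 numbers. Of the treatment comparisons, the only ones checked, B6hr with R6hr alone met this (0.59, 0.19 and 0.46). The main fit used no pairing there either, and the blocked fit of those libraries alone is given beside it. Alternatives were a replicate block, each library left out, the compared libraries alone, pseudocounts of 0.1 and 5, no filter, quantile normalization, adjustment over 16014 genes, and days 7 and 9 left out. Added after seeing the data were the block within the compared libraries alone and the authors' deposited test.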

Additional observations from a re-analysis of the deposited data

Results flagged for a closer look

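The M over R difference of Sox3 differed between days: the value (M5 over R5) minus (M4 over R4) was -2.29 on the log2 scale (limma interaction, SE 0.68, adjusted p = 0.034). All M5 libraries were below all M4 libraries, and all R5 libraries above all R4 libraries. The call ended without any one of 9 of its 12 libraries (adjusted p = 0.052 to 0.126), and the value without one library lay between -2.36 and -1.95 in these 9 cases. No test for a library far from its group was run, since every group had 3 libraries.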

How the results depend on the processing

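All 21 called treatment differences of M over R and M over B kept their direction under every alternative run. The counts of comparisons called for Sox1, Sox2 and Sox3 stayed within 1.5 times. With 1 library left out they were 9 to 11, 10 to 11 and 9 to 11. Only comparisons of that library's group were refitted there, so the other calls in each count were fixed. The counts therefore say little about single calls, several of which ended. The cause of calls that ended or appeared was not tested. The replicate block over all libraries ended, among single comparisons, only Sox1 in M9 over B9 (adjusted p = 0.053). In the permutation tests, pairing by number left Sox2 relative to Sox3 at 0.59 in M over R (adjusted p = 0.11) and at -0.65 in M over B (0.070). Leaving out 1 library gave 0.46 to 0.70 and -0.83 to -0.51 for these, and quantile normalization gave 0.54 in M over R (0.059). Within the compared libraries alone the block ended 6 calls between groups and added 7, among them Sox2 in B6hr over R6hr. That was the 1 treatment comparison that met the pairing rule. Steps between sampled times, such as R4 over D3, were not checked for pairing, and no label says which libraries pair. Ended were Sox2 and Sox3 in R4 over D3 (adjusted p = 0.051 and 0.067), Sox2 in M4 over D3 (0.070), Sox3 in B5 over R5 (0.098) and Sox1 and Sox3 in B7 over R7 (0.067 and 0.076). Added were Sox1 and Sox3 in B9 over R9 and R9 over R7, Sox1 in M9 over M7 (0.041) and Sox1 in B7 over B5 (0.043). With days 7 and 9 left out, B over R and M over B rest on day 5 alone, whose smallest p is 0.1. Adjusted p was then 0.11 for B over R of Sox1 (-1.61), Sox3 (-2.07), Sox1 relative to Sox2 (-1.17) and Sox2 relative to Sox3 (1.64), and for M over B of Sox1 (-3.42), Sox2 (-2.21) and Sox3 (-2.22). In M over R, Sox1 relative to Sox3 was -1.66 (0.054) and Sox2 relative to Sox3 0.67 (0.11). Day 5 alone turned the sign of Sox1 relative to Sox3 in B over R (0.46) and, in M over B, of Sox1 relative to Sox2 (-1.21) and Sox2 relative to Sox3 (0.011).

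Sign changes in comparisons were all in values not called. Quantile normalization gave -0.20 for Sox3 in D3 over D0, 0.029 for Sox3 in M4 over D3, 0.0042 for Sox1 in M5 over M4, 0.069 for Sox2 in B9 over B7 and -0.11 for Sox3 in (M7 over R7) minus (M5 over R5). It moved the median of all genes by over 0.1 in D3 over D0 (-0.12), B6hr over R4 (0.14), R5 over R6hr (-0.12) and B5 over B6hr (-0.11). With the sign turned to match, the authors' deposited table gave -0.16 for Sox1 in B6hr over R6hr, 0.28 and 0.12 for Sox1 in R6hr and B6hr over R4, and 0.13 for Sox3 in R6hr over R4. Leaving out 1 library gave these ranges for Sox1: -1.13 to 0.45 for (M5 over R5) minus (M4 over R4), -0.60 to 0.97 for (M7 over R7) minus (M5 over R5), -0.46 to 0.41 for B6hr over R4, -0.73 to 0.65 for B6hr over R6hr, -0.50 to 0.50 for M4 over D3, -0.76 to 0.81 for M5 over M4, -1.10 to 0.47 for M7 over M5, -0.33 to 1.04 for R5 over R6hr and -0.68 to 0.70 for R6hr over R4. For Sox2 they were -0.67 to 0.024, -0.68 to 0.018 and -0.24 to 0.25 for the changes of M over R from day 4 to 5, 5 to 7 and 7 to 9, -0.15 to 0.29 for B6hr over R4, -0.17 to 0.015 for B9 over B7, -0.49 to 0.20 for M5 over M4, -0.46 to 0.23 for M7 over M5 and -0.022 to 0.47 for M9 over M7. For Sox3 they were -0.33 to 0.66 for (M7 over R7) minus (M5 over R5), -0.27 to 0.30 for D3 over D0, -0.36 to 0.21 for M4 over D3, -0.050 to 0.93 for M7 over M5 and -0.70 to 0.55 for R6hr over R4. DESeq2 size factors were not run, since the table holds no counts. The unknown depth allows no interval for counting error.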
